A study of Mus musculus with 8 samples.

Results

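Hox genes encode homeodomain transcription factors that specify position along the body axis. In mammals they lie in 4 clusters, *Hoxa* to *Hoxd*, in which the genes stand in the order of their paralog numbers, low numbers being used by anterior and high numbers by posterior tissues. Genes of the same number in different clusters are paralogs. Cultured fibroblasts keep a Hox pattern that reflects the place in the body from which they were taken, and in the lung mesenchyme genes of the *Hoxa* and *Hoxb* clusters are the ones known for patterning. The members described here are all entries of the deposited count table whose symbol is *Hoxa*, *Hoxb*, *Hoxc* or *Hoxd* followed by a paralog number. They were 40 of 54532 entries and 39 symbols, since *Hoxd4* stood on 2 entries, one of them without counts.

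RNAseq was available for 4 WT and 4 HOMO libraries of mouse primary lung fibroblasts (pFBs), untreated and on a C57/black background. HOMO pFBs came from mice homozygous for a human IGFBP5 transgene, inserted with CRISPR/Cas9 and driven ubiquitously by an elongation factor promoter, and WT pFBs from wild type mice. The pFBs sequenced were from female animals, and how many animals stand behind each library was not stated, so the p-values below measure the spread between libraries. Libraries are called WT1–WT4 and HOMO1–HOMO4 after their labels, and n counts libraries.

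Between 17236521 and 31987790 reads were counted per library. Levels are given as CPM, counts scaled to the library sizes that edgeR gives, and 3 counts, taken as the floor of counting, corresponded to between 0.0907 and 0.172 CPM, which covers counting error only. The human transgene was not analysed here. Mouse *Igfbp5* was counted 130, 225, 7130 and 112 times in WT1–WT4 and 24, 37, 37 and 57 times in HOMO1–HOMO4, so WT3 stood apart. Fibroblast markers were abundant in every library, with *Col1a1* at 4910 ± 536 CPM in WT and 8657 ± 3314 CPM in HOMO (mean ± SD, n = 4 each). Distances between libraries were unequal. WT1 with WT2, HOMO1 with HOMO2 and HOMO3 with HOMO4 differed by a biological coefficient of variation of 4.71 to 7.65%, against 30.0 to 56.4% for the other pairs within a genotype. These 3 pairs still differed by more than sampling noise, with a chi-square per degree of freedom of 4.07 to 8.39, and all 8 libraries were kept. The summed level of 5 haematopoietic markers (*Ptprc*, *Cd68*, *Csf1r*, *Adgre1* and *Lyz2*) was 109, 140, 1850 and 1090 CPM in WT1–WT4 and 24.1, 23.0, 131 and 152 CPM in HOMO1–HOMO4.

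The Hox genes called between HOMO and WT pFBs lay in 3 of the 4 clusters. *Hoxb5* to *Hoxb9* fell together, while *Hoxb2* to *Hoxb4*, their neighbours in the same cluster, were not called. *Hoxc4*, *Hoxd8* and *Hoxd9*, with at most 8 counts in a WT library apart from 18 of *Hoxd8* in WT3, rose. No gene of the *Hoxa* cluster was called. A gene was called when edgeR's quasi-likelihood F test gave a Benjamini-Hochberg adjusted p under 0.05 over all 14150 genes tested, with an absolute log2 fold change (log2FC) above 0.6. Fold changes are HOMO over WT. Of the 40 Hox entries 21 passed the filter on low counts and were tested, and 8 of these (38.1%) were called, against 12.1% of all tested genes. Of the 8, 3 were higher in HOMO (5.94% of all genes) and 5 lower (6.18% of all genes). The 3 higher genes passed the filter only through their HOMO counts, so their direction was tied to their being tested. They are therefore no independent support for the share of 38.1%. The 5 lower genes are neighbours that fell together, so they may not count as separate calls in that share either. In the same 8 genes the libraries of the genotypes did not overlap, which was the case in 27.3% of all genes tested. The median log2FC of the 21 Hox genes was −0.36, and that of all tested genes −0.04. Because these are bulk cultures, fewer cells expressing a gene cannot be told apart from less RNA per cell.

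When the counts of the near-identical libraries were summed, leaving 3 WT and 2 HOMO units, edgeR called 0 of 22 Hox genes and 0 genes in all. In that fit 9 Hox genes and 2057 genes in all had an unadjusted p under 0.05, and DESeq2 on the same units, run after the data were seen, called 7 Hox genes and 719 genes in all. Whether such a pair came from 1 animal or culture is not given in the sources used here. If each pair counts once, an exact permutation test has 10 assignments and cannot go below p = 0.1, so the exact p-values given here for 8 libraries may be too small. The same holds for the p-values of edgeR, DESeq2 and limma-voom, which also take the 8 libraries as separate. On the summed units the edgeR adjusted p of *Hoxb5* to *Hoxb9* lay between 0.166 (*Hoxb7*) and 0.252 (*Hoxb9*).

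The *Hoxb* cluster lies on chromosome 11 of GRCm38 (mm10) from 96194316 to 96368256, on the forward strand, with *Hoxb13* at its left end and *Hoxb1* at its right end. The 5 genes that fell occupy the stretch from the start of *Hoxb9* at 96271457 to the end of *Hoxb5* at 96306121, 34.7 kb long. *Hoxb4*, which begins at 96318267, is separated from *Hoxb5* by 12.1 kb. That gap holds the microRNA gene *Mir10a* (96317165 to 96317274), and *Mir196a-1* lies on the other side of *Hoxb9* (96265164 to 96265265). Both microRNAs are known to target Hox transcripts. Mature sequences from the RefSeq annotation of GRCm38.p6 follow, with the seed, bases 2 to 8, in capitals. Those of *Mir10b* and *Mir196b*, which lie outside the *Hoxb* cluster, are shown for comparison.
mmu-miR-10a-5p: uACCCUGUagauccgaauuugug
mmu-miR-10b-5p: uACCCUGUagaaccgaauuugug
mmu-miR-196a-5p: uAGGUAGUuucauguuguuggg
mmu-miR-196b-5p: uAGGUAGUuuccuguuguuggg
The miR-10 pair, encoded in the *Hoxb* and *Hoxd* clusters, shares its seed, and so does the miR-196 pair, encoded in the *Hoxb*, *Hoxc* and *Hoxa* clusters. Mature microRNAs are not measured by libraries made from polyadenylated RNA, so the counts of these loci speak only of longer transcripts. *Mir10a* had 6, 8, 4 and 8 counts in WT1–WT4 and 4, 7, 5 and 5 in HOMO1–HOMO4. The *Mir196a-1* locus had 0, 3, 7 and 69 counts in WT1–WT4 and 1, 2, 3 and 9 in HOMO1–HOMO4, so it was counted mainly in WT4.

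The 250 bases before the start sites of *Hoxb4* and *Hoxb8* are printed as examples from either side of the gap. They come from the RefSeq promoter table of GRCm38.p6, forward strand, and capitals mark matches on either strand to TATAAA, known as the TATA box, to the promoter element CCAAT, to AGGTCA (the core of retinoic acid receptor sites) and to TAATTA (a homeodomain core).
*Hoxb4*, chr11:96318017-96318266: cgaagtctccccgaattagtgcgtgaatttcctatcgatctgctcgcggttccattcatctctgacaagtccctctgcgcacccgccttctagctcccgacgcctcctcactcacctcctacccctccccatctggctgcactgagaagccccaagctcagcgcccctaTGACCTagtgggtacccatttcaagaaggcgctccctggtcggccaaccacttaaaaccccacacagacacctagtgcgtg
*Hoxb8*, chr11:96281655-96281904: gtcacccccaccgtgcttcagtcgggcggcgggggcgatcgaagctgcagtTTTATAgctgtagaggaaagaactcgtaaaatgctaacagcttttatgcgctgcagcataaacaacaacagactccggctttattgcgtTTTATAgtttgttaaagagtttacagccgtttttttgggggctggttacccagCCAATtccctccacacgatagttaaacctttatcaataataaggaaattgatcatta
The *Hoxb8* stretch holds TATAAA 2 times, at −199 and −110 from the start site, and CCAAT at −57. The *Hoxb4* stretch holds AGGTCA at −81. The table holds 24 promoters of 300 bases for 22 Hox symbols, among 32851 promoters. CCAAT occurred in 15 of the 24 Hox promoters and in 37.4% of all promoters. For TATAAA these figures were 4 of 24 and 13.6%, for AGGTCA 7 of 24 and 16.3%, and for TAATTA 2 of 24 and 5.29%. Median GC content was 57.7% in Hox promoters and 52.7% in all. Among the genes that changed, the table gives *Hoxb8*, *Hoxc4*, *Hoxd8* and *Hoxd9*. The *Hoxc4* promoter held AGGTCA at −146 and CCAAT at 3, and that of *Hoxd8* AGGTCA at −135 and CCAAT at −62. None of the 4 motifs was in the *Hoxd9* promoter. The *Hoxc4* promoter listed, at 103034145 to 103034444, lies inside the annotated gene (103018934 to 103036852), so it belongs to an internal start site. A match describes letters only.

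*Hoxb5* (chromosome 11, 96303336 to 96306121), which acts in the patterning of lung airways, was counted 560, 667, 610 and 968 times in WT1–WT4 and 39, 63, 122 and 114 times in HOMO1–HOMO4. Its level was 33.1 ± 3.89 CPM in WT and 3.88 ± 2.39 CPM in HOMO (mean ± SD, n = 4 each), a log2FC of −3.10 ± 0.45 (SE, adjusted p = 0.00572 by edgeR). The lowest WT library, WT2 at 28.6 CPM, stood far above the highest HOMO library, HOMO3 at 6.18 CPM.

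*Hoxb6* (96292476 to 96301569) had the highest mean WT level per length of the *Hoxb* protein-coding Hox genes. It was counted 667, 794, 853 and 1315 times in WT1–WT4 and 40, 66, 140 and 95 times in HOMO1–HOMO4. From 42.8 ± 8.31 CPM in WT it fell to 3.91 ± 2.52 CPM in HOMO (mean ± SD, n = 4 each), a log2FC of −3.46 ± 0.46 (SE, adjusted p = 0.00444 by edgeR), the largest decrease among the tested Hox genes.

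*Hoxb7* (96286623 to 96290162), a proliferation-linked Hox gene in several tumours, had 369, 442, 242 and 595 counts in WT1–WT4 against 32, 55, 45 and 70 in HOMO1–HOMO4. Levels were 19.1 ± 3.89 CPM in WT and 2.22 ± 0.930 CPM in HOMO (mean ± SD, n = 4 each). The log2FC of −3.11 ± 0.33 (SE) had the smallest adjusted p of the Hox genes (adjusted p = 0.00196 by edgeR).

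*Hoxb8* (96281905 to 96285315), best known from myeloid progenitors and the spinal cord, had 604, 685, 579 and 951 counts in WT1–WT4 and 55, 106, 151 and 155 in HOMO1–HOMO4. Its level fell from 33.3 ± 3.06 to 5.26 ± 2.83 CPM (mean ± SD, n = 4 each), a log2FC of −2.67 ± 0.39 (SE, adjusted p = 0.00579 by edgeR). *Hoxb9* (96271457 to 96276595) had 394, 484, 480 and 665 counts in WT1–WT4 and 59, 104, 162 and 146 in HOMO1–HOMO4. Its level fell from 24.0 ± 3.12 to 5.32 ± 2.84 CPM (mean ± SD, n = 4 each), by 2.18 ± 0.38 (SE, adjusted p = 0.0112 by edgeR) on the log2 scale, the smallest decrease of the 5. The 95% intervals of the 5 log2 fold changes overlapped, running from −4.51 to −2.41 for *Hoxb6* and from −3.05 to −1.31 for *Hoxb9*.

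**Figure D1:**
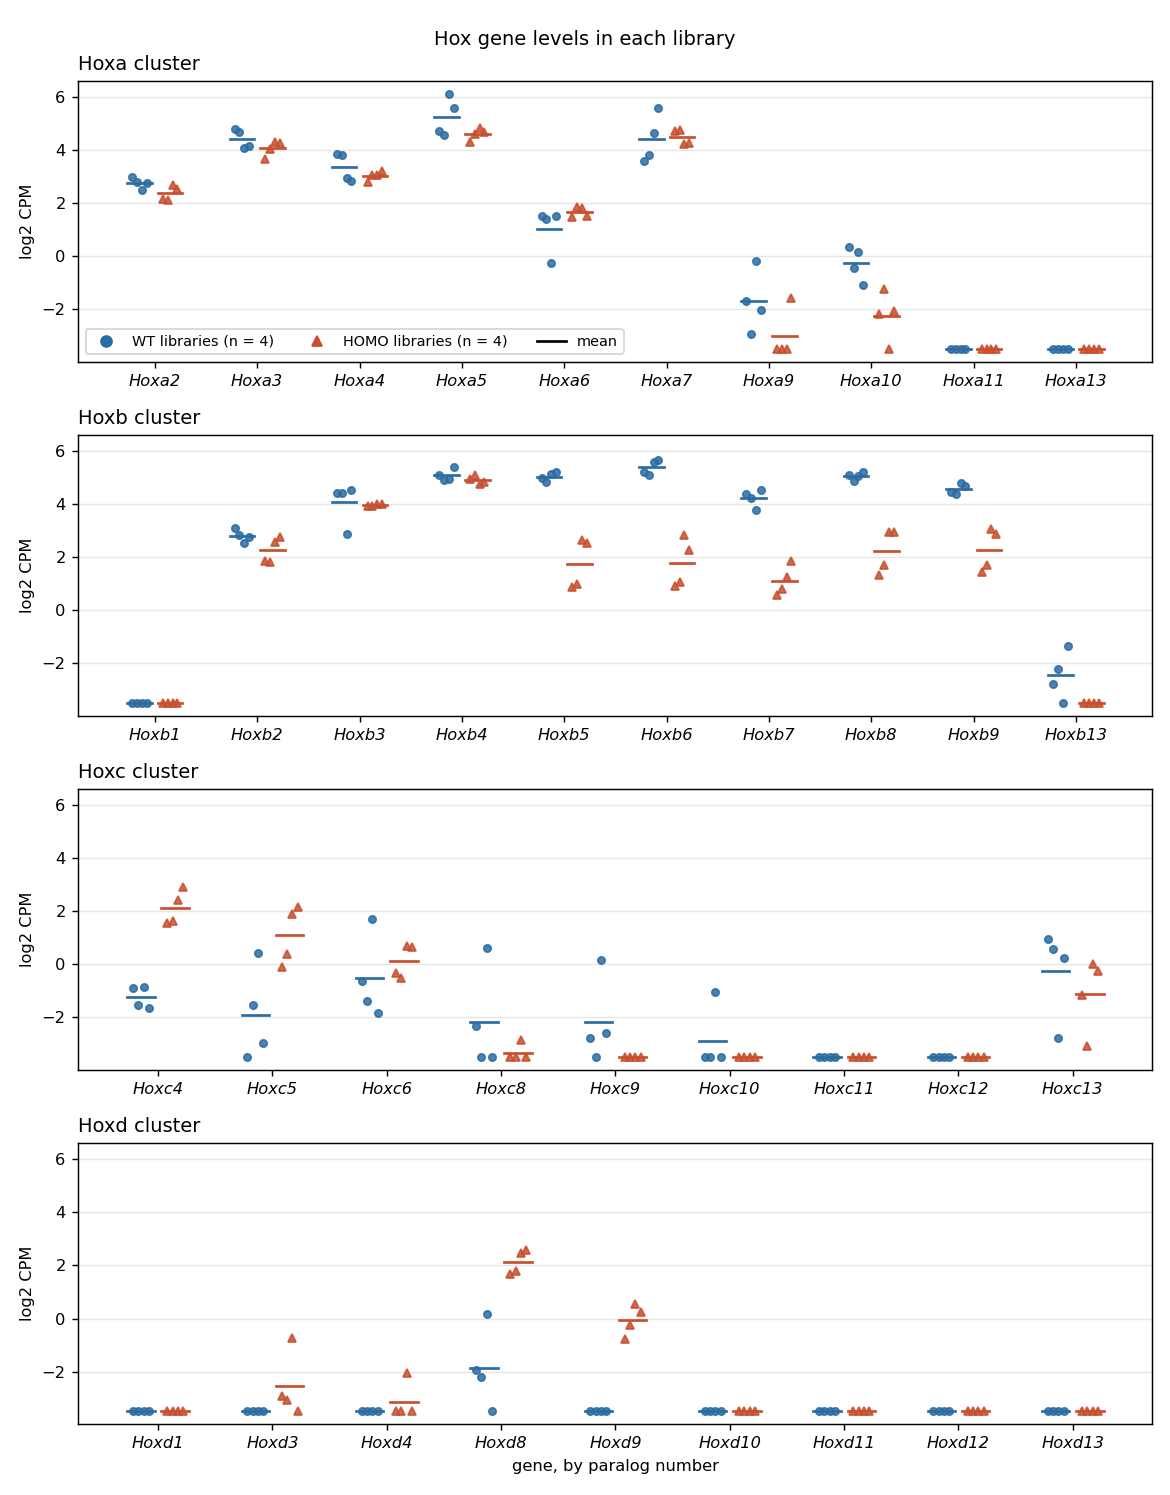
Level of the Hox genes described here in each library as log2 CPM, with a panel for each cluster, genes ordered by paralog number, blue circles for the 4 WT and red triangles for the 4 HOMO libraries, and a line for each mean. In *Hoxb5* to *Hoxb9* all WT points lie above all HOMO points, in *Hoxc4*, *Hoxd8* and *Hoxd9* all HOMO points lie above all WT points, and the lowest row of points in a panel are genes without counts.

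Inside HOMO, the libraries formed pairs in these genes. *Hoxb5* to *Hoxb9* summed to 10.02 and 11.91 CPM in HOMO1 and HOMO2 and to 31.4 and 29.0 CPM in HOMO3 and HOMO4, against 146, 132, 158 and 174 CPM in WT1–WT4. HOMO3 and HOMO4 were above HOMO1 and HOMO2 in each of the 5 genes. The 2 members of each pair are near-identical libraries, so this rests on 2 separate values and was not tested. The sum over *Hoxb2* to *Hoxb4*, most of it from *Hoxb4*, did not follow these pairs, at 50.1, 53.4, 49.6 and 51.2 CPM in HOMO1–HOMO4, and was 64.6, 58.3, 43.5 and 72.1 CPM in WT1–WT4. *Hoxb2* alone was lower in the first pair, at 3.56 and 3.45 CPM in HOMO1 and HOMO2 and 5.92 and 6.76 CPM in HOMO3 and HOMO4. Haematopoietic markers and those of smooth muscle and pericytes moved with the pairs, the latter (*Myh11*, *Acta2*, *Des*, *Cspg4* and *Rgs5*) summing to 195, 203, 1390 and 1370 CPM in HOMO1–HOMO4. Their part in the levels was not tested.

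WT1 and WT2, with few haematopoietic marker counts, had sums over *Hoxb5* to *Hoxb9* of 146 and 132 CPM, and WT3 and WT4, with many, of 158 and 174 CPM. All 5 genes were called in each of the 8 fits that left out 1 library. In these fits the log2FC of *Hoxb9* stayed between −2.46 and −1.95 and that of *Hoxb6* between −3.92 and −3.22. Except for WT3 and WT4, each left-out library had a near-identical partner that stayed in the fit. Such fits therefore cannot show whether a call depends on a near-identical pair, here or for other genes.

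The neighbours on the *Hoxb1* side of the gap had different values. *Hoxb4* (96318267 to 96321638), a regulator of stem cell self-renewal in blood, was counted 615, 700, 534 and 1084 times in WT1–WT4 and 701, 1146, 542 and 567 times in HOMO1–HOMO4. This is 34.3 ± 5.49 CPM in WT and 30.4 ± 3.24 CPM in HOMO (mean ± SD, n = 4 each), and the log2FC of −0.17 had a 95% interval from −0.52 to 0.18 (adjusted p = 0.477 by edgeR). Its genotypes overlapped, and the interval lies wholly above that of *Hoxb5*, which ended at −2.09. *Hoxb3* had 18.37 ± 7.501 and 15.7 ± 0.471 CPM (mean ± SD, n = 4 each) and a log2FC of −0.22 ± 0.33 (SE, adjusted p = 0.671 by edgeR). *Hoxb2*, a hindbrain patterning gene, had 7.01 ± 1.12 and 4.92 ± 1.67 CPM (mean ± SD, n = 4 each) and a log2FC of −0.51 ± 0.29 (SE, adjusted p = 0.252 by edgeR). *Hoxb3* and *Hoxb2* share 52.9 and 27.3% of their exon bases with genes on the opposite strand, and the strand setting of the counting is not given in the sources used here. DESeq2 and limma-voom did not call any of these 3 genes either. *Hoxb1* had no counts. *Hoxb13*, at the far end, had 1, 3, 0 and 8 counts in WT1–WT4 and none in HOMO (two-sided exact permutation p = 0.143).

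The step between *Hoxb5* and *Hoxb4* was read within each library, where library size cancels. These ratios use the same counts as the fold changes above and are no separate support for them. The log2 ratio of *Hoxb5* to *Hoxb4* counts (0.5 added to each) was −0.14, −0.07, 0.19 and −0.16 in WT1–WT4 and −4.15, −4.17, −2.15 and −2.31 in HOMO1–HOMO4. The mean ratio was lower in HOMO by 3.15 on the log2 scale in a two-sided exact permutation test over the 70 assignments of libraries (p = 0.0286, the smallest it can give). Of 17 neighbouring pairs of tested Hox genes compared this way, 6 reached that p, with a Benjamini-Hochberg adjusted exact permutation p of 0.081 for each. Among these 6, *Hoxb5* with *Hoxb4* had the largest difference, followed by *Hoxc6* with *Hoxc5* at −2.95, and *Hoxb6* with *Hoxb5* differed by −0.35. In counts, *Hoxb5* to *Hoxb9* together were 2.26, 2.26, 3.64 and 2.41 times *Hoxb2* to *Hoxb4* in WT1–WT4 and 0.200, 0.223, 0.633 and 0.568 times in HOMO1–HOMO4.

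**Figure D2:**
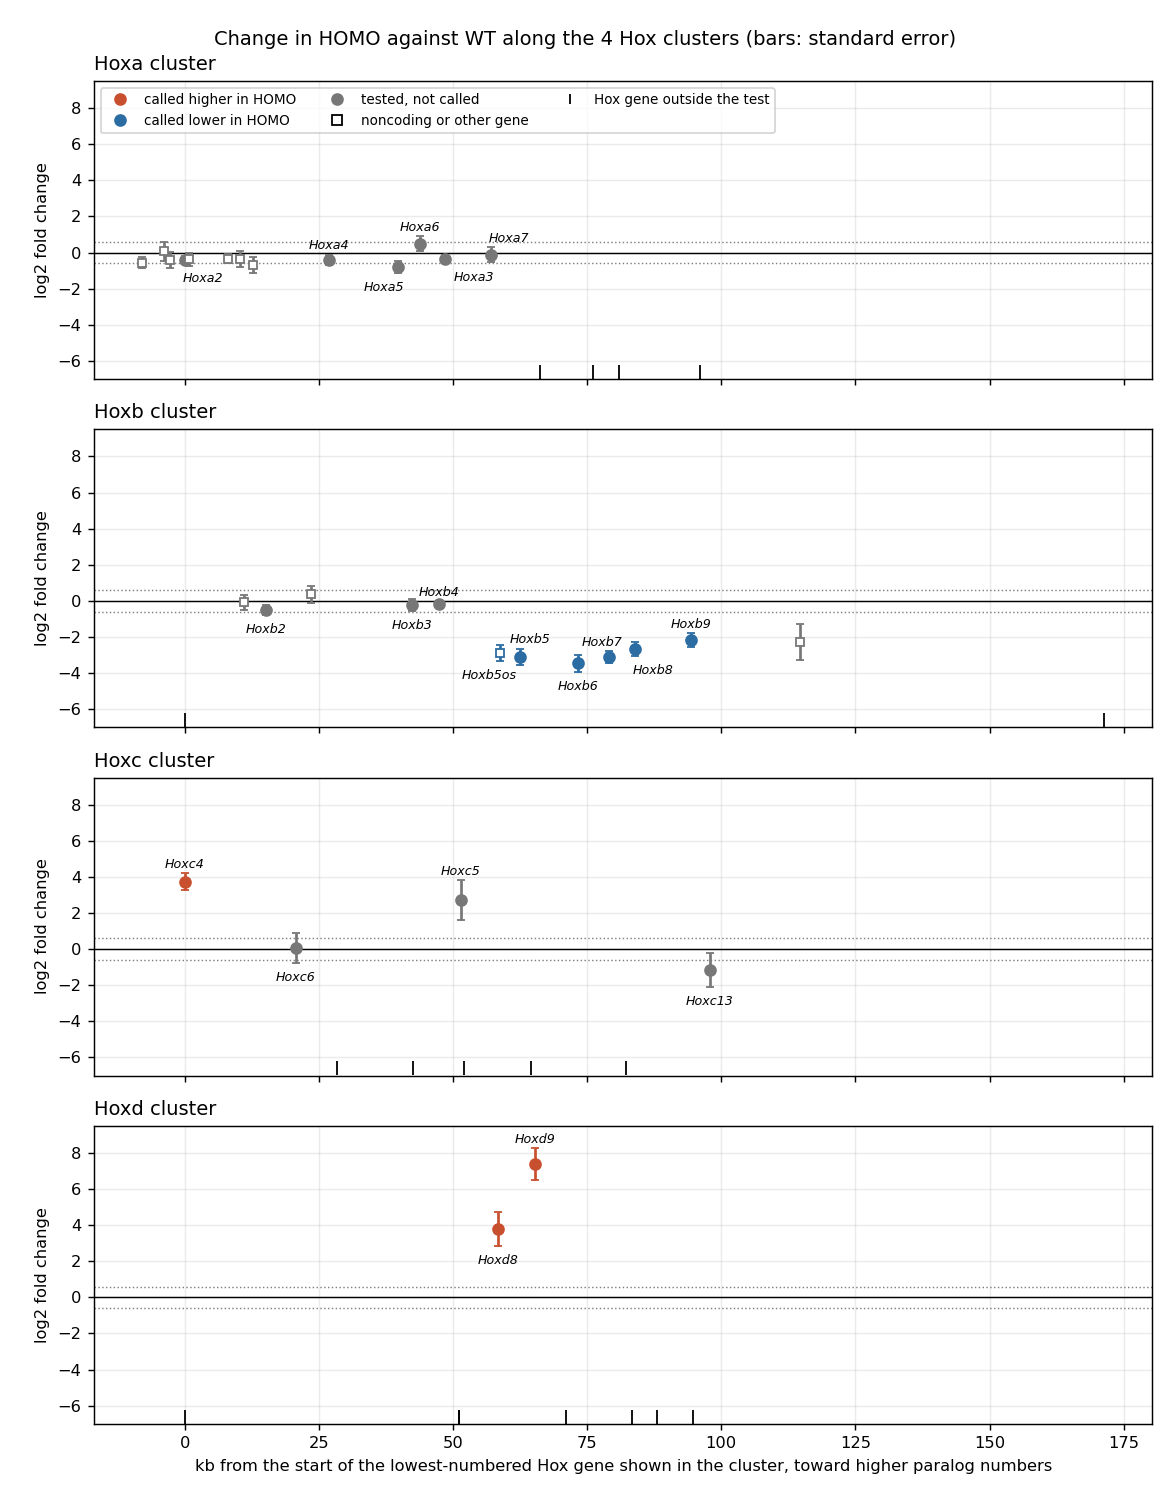
Log2 fold change of HOMO over WT against the distance in kb of each annotated gene start from the start of the lowest-numbered gene shown in its cluster, with a panel per cluster, bars for the standard error, dotted lines at 0.6 and −0.6 and ticks for Hox genes outside the test. The blue points from *Hoxb5* to *Hoxb9* lie between −3.46 and −2.18 next to grey *Hoxb2* to *Hoxb4* near 0, *Hoxc4*, *Hoxd8* and *Hoxd9* are red, and the fitted value of *Hoxd9*, which had no WT counts, depends on the added prior count.

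Other transcripts of the *Hoxb* cluster were read from the annotation (GENCODE M21). *Hoxb5os*, an antisense gene that spans *Hoxb6* and *Hoxb5* on the reverse strand (96291024 to 96306910), had 263, 411, 379 and 590 counts in WT1–WT4 and 28, 47, 95 and 59 in HOMO1–HOMO4. It fell from 19.2 ± 3.72 to 2.61 ± 1.66 CPM (mean ± SD, n = 4 each), by 2.89 ± 0.45 (SE, adjusted p = 0.00727 by edgeR) on the log2 scale. It shares 14.4% of its exon bases with genes of the other strand and *Hoxb5* 3.59%, so part of its counts may not be its own. *Gm53*, a noncoding gene upstream of *Hoxb9*, had 30, 26, 138 and 468 counts in WT1–WT4 and 10, 17, 41 and 59 in HOMO1–HOMO4, with a log2FC of −2.28 ± 0.98 (SE, adjusted p = 0.148 by edgeR) that was not called by edgeR but was called lower by DESeq2. Over the 4 clusters 48 noncoding and other genes were in the table, of which 28 had no counts, 11 were tested by edgeR, which called *Hoxb5os* alone, in all 8 fits that left out a library as well. DESeq2 called *Hoxb5os* and *Gm53*, and limma-voom *Hoxb5os*, *5730596B20Rik* and *Gm15050*, all lower. The median log2FC of the 11 was −0.38.

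The *Hoxd* cluster (chromosome 2, 74668310 to 74765142) was nearly silent in WT. All its genes together summed to 0.169, 0.129, 1.03 and 0 CPM in WT1–WT4 and to 3.61, 4.14, 7.49 and 7.01 CPM in HOMO1–HOMO4, so every HOMO library was above every WT library. *Hoxd8* (74704615 to 74707933), a gene of the middle of the cluster, gave most of this, with 3, 3, 18 and 0 counts in WT1–WT4 and 69, 111, 108 and 118 in HOMO1–HOMO4. Its level rose from 0.332 ± 0.472 to 4.45 ± 1.44 CPM (mean ± SD, n = 4 each), a log2FC of 3.79 ± 0.94 (SE, adjusted p = 0.0341 by edgeR). The call was lost without WT1, WT2, HOMO1, HOMO2, HOMO3 or HOMO4, with edgeR adjusted p-values up to 0.0843, and its adjusted p was 0.00448 without WT3.

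*Hoxd9* (74697727 to 74700208), next to *Hoxd8*, had no counts in WT and 11, 25, 27 and 22 counts in HOMO1–HOMO4. At 0.928 ± 0.385 CPM (SD, n = 4) in HOMO it was at least 6.35-fold higher than the floor of 3 counts per WT library (adjusted p = 0.00872 by edgeR). Without HOMO2 it no longer passed the filter on low counts and was not tested. The other *Hoxd* genes had few counts or none. *Hoxd3* had 1, 1, 10 and 0 counts in HOMO1–HOMO4 (two-sided exact permutation p = 0.143) and *Hoxd4* 3 counts in HOMO3, with none in WT for either, and 62.3 and 52.3% of their exon bases lie under another gene of the same strand. *Hoxd1* and *Hoxd10* to *Hoxd13* had no counts in any library.

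The *Hoxc* cluster (chromosome 15, 102921103 to 103036852) was also low in WT. *Hoxc4* (103018934 to 103036852), the lowest-numbered gene there, had 8, 6, 8 and 6 counts in WT1–WT4 and 65, 99, 106 and 148 counts in HOMO1–HOMO4. Its level rose from 0.349 ± 0.121 to 4.67 ± 2.16 CPM (mean ± SD, n = 4 each), a log2FC of 3.74 with a 95% interval from 2.70 to 4.78 (adjusted p = 0.00326 by edgeR). The highest WT library, WT3 at 0.458 CPM, was below the lowest HOMO library, HOMO1 at 2.89 CPM. *Hoxc4* was called without each library in turn, with adjusted p-values from 0.00408 to 0.0148.

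*Hoxc5* had 0, 6, 22 and 1 counts in WT1–WT4 and 19, 40, 73 and 88 counts in HOMO1–HOMO4. Its log2FC of 2.73 ± 1.10 (SE, adjusted p = 0.126 by edgeR) was not called by edgeR, and WT3 at 1.26 CPM was above HOMO1 and HOMO2. DESeq2 (adjusted p = 0.0395) and limma-voom (adjusted p = 0.00533) called it higher with all 8 libraries. Without WT3 the log2 fold change was 4.55 (adjusted p = 0.0245 by edgeR), a call. *Hoxc6* had 10, 7, 55 and 5 counts in WT1–WT4 and 16, 20, 30 and 30 in HOMO1–HOMO4, a log2FC of 0.06 ± 0.84 (SE, adjusted p = 0.970 by edgeR). Without WT3, which held most of its WT counts, the log2FC of *Hoxc6* was 1.63 (adjusted p = 0.0747 by edgeR).

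WT3 stood apart over the middle of the *Hoxc* cluster. *Hoxc8* was counted 2, 0, 25 and 0 times in WT1–WT4, *Hoxc9* 1, 0, 18 and 2 times, and *Hoxc10* 0, 0, 7 and 0 times. In HOMO these 3 genes together had 1 count, in *Hoxc8* of HOMO3. The two-sided exact permutation p-values were 0.429, 0.143 and 1.00. Mouse *Igfbp5* and the haematopoietic markers were also highest in WT3, and their part in these counts was not tested. *Hoxc13*, a posterior gene known from hair and nails, had 33, 33, 1 and 28 counts in WT1–WT4 and 8, 1, 18 and 15 in HOMO1–HOMO4, so WT3 was low here, and its log2FC of −1.14 ± 0.95 (SE, adjusted p = 0.440 by edgeR) was not called. *Hoxc11* and *Hoxc12* had no counts.

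**Figure D3:**
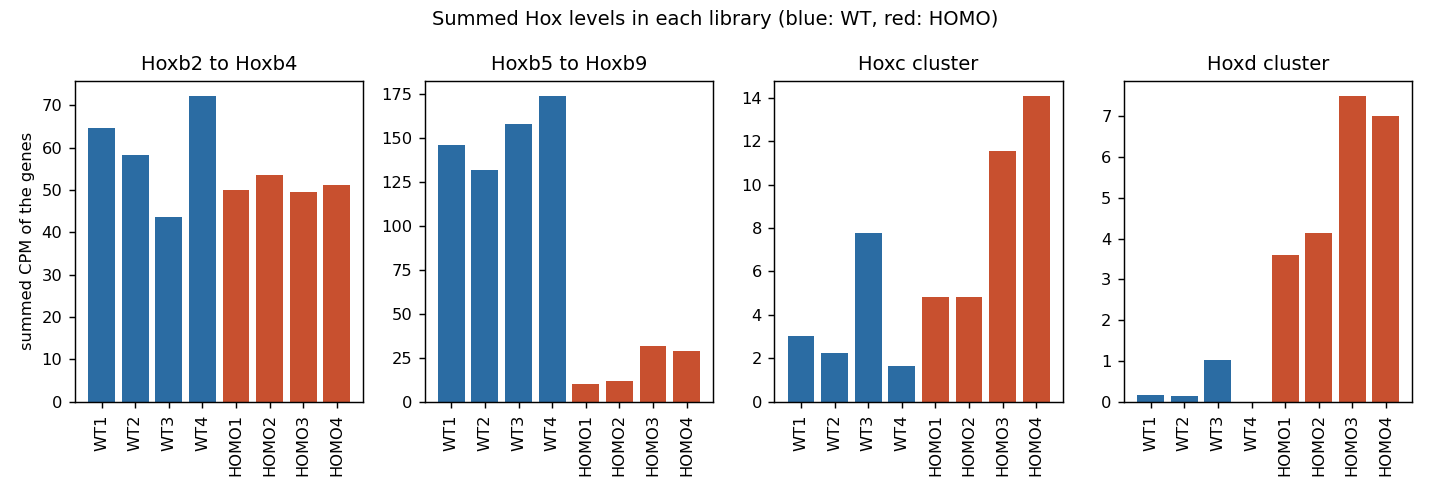
Summed CPM of *Hoxb2* to *Hoxb4*, *Hoxb5* to *Hoxb9*, the *Hoxc* cluster and the *Hoxd* cluster in each library, as bars from 0, blue for WT and red for HOMO, with a vertical scale of its own in each panel. *Hoxb5* to *Hoxb9* are lower in every HOMO library, the *Hoxd* cluster is higher in every HOMO library, and in the *Hoxc* cluster WT3 at 7.79 CPM lies among the HOMO libraries.

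The *Hoxa* cluster (chromosome 6, reverse strand) had 7 tested genes and 0 calls with edgeR, where *Hoxa5* alone, 1 of 7, had an unadjusted p under 0.05. DESeq2 called 0 of the 7, and limma-voom called *Hoxa4* lower and *Hoxa7* higher. All *Hoxa* genes together summed to 97.2, 92.1, 129.4 and 134.6 CPM in WT1–WT4. In HOMO1–HOMO4 the sum was 76.95, 88.04, 89.09 and 86.34 CPM, so every HOMO library was below every WT library. The difference in this sum was not tested. It rested in part on *Hoxa5*, which alone gave 69.9 CPM in WT3. Without *Hoxa5* the sum of WT3 lay among those of the HOMO libraries. *Hoxa5*, which lung development needs for airway and alveolar formation, had a mean level of 22.5 CPM per kb of exon in WT and 13.1 CPM per kb in HOMO. It was counted 474, 554, 1220 and 1249 times in WT1–WT4 and 447, 804, 565 and 512 times in HOMO1–HOMO4. The level of 42.1 ± 21.5 CPM in WT against 24.6 ± 3.62 CPM in HOMO (mean ± SD, n = 4 each) gave a log2FC of −0.78 ± 0.34 (SE, adjusted p = 0.151 by edgeR). WT1 and WT2, at 26.6 and 23.7 CPM, lay within the HOMO range of 19.9 to 28.6 CPM, and WT3 and WT4, at 69.9 and 48.3 CPM, above it.

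*Hoxa7* split the WT libraries in the same way, with 11.97, 14.2, 24.98 and 48.5 CPM in WT1–WT4 and 26.5, 26.9, 18.5 and 19.5 CPM in HOMO1–HOMO4. Its log2FC of −0.13 ± 0.42 (SE, adjusted p = 0.868 by edgeR) became 0.42 without WT4. *Hoxa3* had 27.8, 25.4, 16.7 and 17.6 CPM in WT1–WT4, the opposite order, and 12.7 to 19.6 CPM in HOMO. *Hoxa4* had 14.6, 14.1, 7.62 and 7.04 CPM in WT1–WT4 and 6.95 to 9.26 CPM in HOMO. Their log2 fold changes were −0.36 ± 0.23 (SE, adjusted p = 0.308 by edgeR) and −0.40 ± 0.29 (SE, adjusted p = 0.362 by edgeR). *Hoxa2* and *Hoxa6* had levels under 8 CPM, log2 fold changes of −0.40 and 0.49 and edgeR adjusted p-values of 0.261 and 0.440.

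At the posterior end, *Hoxa10*, a gene of the urogenital tract and hind limb, was too low for the test. It had 21, 15, 18 and 10 counts in WT1–WT4 and 3, 11, 0 and 3 in HOMO1–HOMO4. Its level of 0.810 ± 0.362 CPM in WT and 0.154 ± 0.137 CPM in HOMO (mean ± SD, n = 4 each) did not overlap on the CPM scale (two-sided exact permutation p = 0.0286, the smallest possible), and DESeq2, which tested it, called it lower. *Hoxa9* had 4, 1, 14 and 4 counts in WT1–WT4 and 0, 0, 0 and 5 in HOMO1–HOMO4 (two-sided exact permutation p = 0.200). *Hoxa11* and *Hoxa13* had no counts in any library.

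Levels of different genes were compared as CPM per kb of exon. In WT the order of the means was *Hoxa5* at 22.5, *Hoxb6* at 21.8, *Hoxb4* at 13.4, *Hoxb8* at 12.6, *Hoxb7* at 12.4, *Hoxb5* at 11.9 and *Hoxb9* at 9.33 CPM per kb. The first place rested on WT3, where *Hoxa5* had 37.2 and *Hoxb6* 24.9 CPM per kb, since *Hoxb6* was above *Hoxa5* in WT1 (19.1 and 14.2), WT2 (17.3 and 12.6) and WT4 (25.9 and 25.7 CPM per kb). In HOMO the order was *Hoxa5* at 13.1, *Hoxb4* at 11.9, *Hoxa7* at 7.95, *Hoxa4* at 5.14 and *Hoxb3* at 3.70 CPM per kb, and *Hoxb5* to *Hoxb9* lay between 1.39 and 2.07 CPM per kb. *Hoxb4* was above *Hoxa5* in HOMO1 (12.2 and 10.6 CPM per kb) and HOMO2 (13.5 and 12.9 CPM per kb) and below it in HOMO3 and HOMO4. *Hoxc4* and *Hoxd8*, at 1.82 and 1.62 CPM per kb in HOMO, had come to the range of the lowered *Hoxb* genes, from 0.136 and 0.121 CPM per kb in WT. The *Hoxb* cluster gave 64.6 ± 3.74% (SD, n = 4) of all Hox CPM in WT and 41.8 ± 1.24% (SD, n = 4) in HOMO. All Hox genes together summed to 310.8, 284.5, 340 and 382.4 CPM in WT1–WT4 and to 145.5, 162.3, 189.1 and 187.6 CPM in HOMO1–HOMO4, so each HOMO library was below each WT library.

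Read by paralog number, edgeR called no paralogs in the same direction. In group 4, *Hoxc4* rose while *Hoxa4* and *Hoxb4* had log2 fold changes of −0.40 and −0.17 that were not called. For group 5, *Hoxb5* fell, *Hoxa5* had a log2FC of −0.78 and *Hoxc5* of 2.73, both without a call by edgeR. In groups 6 and 7, *Hoxb6* and *Hoxb7* fell, while *Hoxa6* (log2FC 0.49), *Hoxc6* (0.06) and *Hoxa7* (−0.13) were not called. Among the paralogs of group 8, *Hoxb8* fell by 2.67 and *Hoxd8* rose by 3.79 on the log2 scale. *Hoxc8*, too low for the test, was counted mainly in WT3. In group 9, *Hoxb9* fell and *Hoxd9* rose from no counts. *Hoxa9* and *Hoxc9* were too low for the test and had more counts in WT than in HOMO. The level of *Hoxb9* in HOMO, 2.07 CPM per kb, was still above that of *Hoxd9*, 0.435 CPM per kb. Whether paralogs differed from each other was not tested.

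The cofactors with which Hox proteins bind DNA, the TALE homeodomain proteins, were all tested. Of 9 genes, *Meis1* and *Meis2* rose and 0 fell in edgeR and in DESeq2, and the median log2 fold change was 0.31. Of all genes, edgeR called 12.1%, DESeq2 16.5% (7.5% higher and 9.04% lower) and limma-voom 25.3% (14.2% higher and 11.1% lower), and 32.3% had an unadjusted p under 0.05 in edgeR. Limma-voom called *Meis1* and *Meis2* higher and *Pknox2* lower. *Meis1* had 74.5, 77.4, 38.3 and 62.9 CPM in WT1–WT4 and 150, 155, 119 and 117 CPM in HOMO1–HOMO4, a log2FC of 1.10 ± 0.23 (SE, adjusted p = 0.0194 by edgeR). *Meis2* had 26.5, 24.2, 13.8 and 34.5 CPM in WT1–WT4 and 62.9, 61.9, 66.4 and 55.6 CPM in HOMO1–HOMO4, a log2FC of 1.32 ± 0.25 (SE, adjusted p = 0.0142 by edgeR). In both genes every HOMO library was above every WT library, and both calls were lost without HOMO1 or HOMO2 (edgeR adjusted p up to 0.0705) and on summed near-identical libraries in edgeR and DESeq2.

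Hox clusters are held silent by Polycomb complexes, which deposit and read methylated histone H3 lysine 27 and ubiquitylated H2A, and held active by trithorax complexes. Of 20 Polycomb genes, 3 rose and 0 fell in edgeR, 4 rose and 0 fell in DESeq2, 6 rose and 0 fell in limma-voom, and 5 had an unadjusted edgeR p under 0.05. The edgeR call count is close to the 12.1% of all genes called in either direction. The count at an unadjusted p is below the 32.3% of all genes. By direction, edgeR called 5.94% of all genes higher and 6.18% lower. These shares were 7.5 and 9.04% in DESeq2 and 14.2 and 11.1% in limma-voom. The median log2 fold change was 0.34. Those that rose included *Jarid2*, a substoichiometric subunit of PRC2, at 0.89 ± 0.18 (SE, adjusted p = 0.0184 by edgeR), and *Pcgf2*, a PRC1 subunit, at 0.84 ± 0.18 (SE, adjusted p = 0.0205 by edgeR). *Jarid2* went from 7.29 ± 1.22 to 13.5 ± 0.286 CPM (mean ± SD, n = 4 each). Of 9 trithorax and H3K27 demethylase genes, *Ash2l* (0.72 ± 0.13 SE, adjusted p = 0.0133 by edgeR) and *Kdm6a* (0.80 ± 0.20 SE, adjusted p = 0.0363 by edgeR) rose and 0 fell, with a median of 0.30. Without HOMO1 or HOMO2 none of the calls of *Jarid2*, *Pcgf2*, *Ash2l* and *Kdm6a* was kept, and *Jarid2* and *Kdm6a* were also lost without HOMO3 or HOMO4, and *Kdm6a* without WT1 or WT4. On summed near-identical libraries these 4 calls were lost in DESeq2 too. Of 8 genes of CTCF and cohesin, which form boundaries between chromatin domains, edgeR called 0, with 2 at an unadjusted p under 0.05 1 call in DESeq2 (*Stag1*) and 0 in limma-voom. Their median was 0.18, and the most abundant, *Rad21*, had a log2FC of 0.12 ± 0.30 (SE, adjusted p = 0.822 by edgeR). The medians of these 4 lists lay above that of all genes, −0.04.

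**Figure D4:**
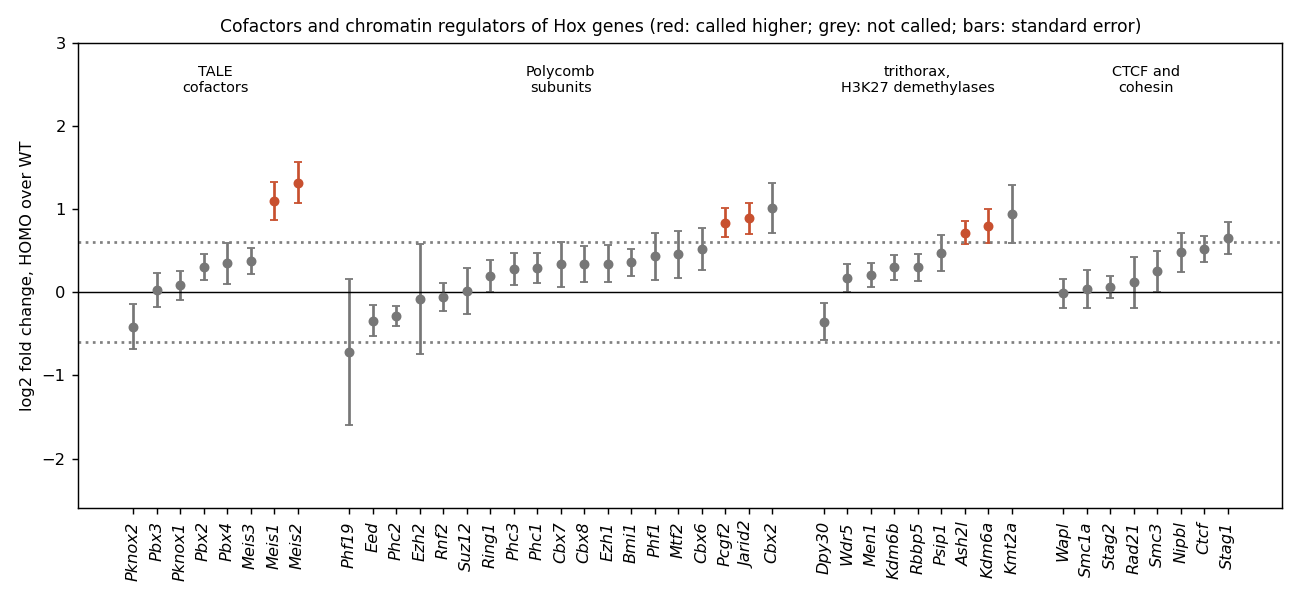
Log2 fold change of HOMO over WT for tested genes among the TALE cofactors, Polycomb subunits, trithorax and H3K27 demethylase genes and CTCF and cohesin genes, with bars for the standard error and dotted lines at 0.6 and −0.6. Called genes are red, among them *Meis2* at 1.32 and *Meis1* at 1.10, and no gene of these lists was called lower.

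Genes that border the clusters, and the Cdx and Evx genes that act with them, gave no call in edgeR or DESeq2. Of 19 such genes 11 were tested, 3 of them had an unadjusted p under 0.05 in edgeR, and limma-voom called *Calcoco1* higher. They had a median log2FC of −0.20, and the most abundant, *Tax1bp1* near the *Hoxa* cluster, had −0.34 ± 0.13 (SE, adjusted p = 0.115 by edgeR). The Cdx genes, which activate posterior Hox genes in the embryo, had 0 counts apart from 1 count of *Cdx1* and 5 counts of *Cdx2* in HOMO4.

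Retinoic acid activates Hox genes through receptors that bind near the clusters. Of 15 genes of its receptors, enzymes and binding proteins, 10 were tested, and none of the 5 tested receptors was called by edgeR or DESeq2. *Rara* and *Rxrb* were higher in every HOMO than in every WT library and passed the adjusted p (0.0395 and 0.0387 by edgeR), but with log2 fold changes of 0.51 and 0.52 they missed the fold threshold, and limma-voom called *Rxrb*. *Cyp26b1*, which degrades retinoic acid, had 74.1, 67.6, 9.11 and 92.1 CPM in WT1–WT4 and 15.7, 14.1, 2.84 and 2.90 CPM in HOMO1–HOMO4. It was not called by edgeR (log2FC −2.77 ± 0.80 SE, adjusted p = 0.0541) and was called lower by DESeq2 and limma-voom. The enzymes that make retinoic acid changed in different directions. *Aldh1a2* had 202, 206, 10.1 and 40.3 CPM in WT1–WT4 and 0.223, 0.212, 1.32 and 0.150 CPM in HOMO1–HOMO4, a log2FC of −7.96 ± 1.23 (SE, adjusted p = 0.00729 by edgeR). *Aldh1a1* rose from 317 ± 152 to 966 ± 403 CPM (mean ± SD, n = 4 each), a log2FC of 1.61 ± 0.42 (SE, adjusted p = 0.0383 by edgeR). *Aldh1a3* had 2.08, 2.66, 0.286 and 5.14 CPM in WT1–WT4 and 7.17, 7.13, 50.9 and 47.1 CPM in HOMO1–HOMO4, a log2FC of 3.44 ± 0.93 (SE, adjusted p = 0.0441 by edgeR). Without HOMO1 or HOMO2 the calls of *Aldh1a1* and *Aldh1a3* were lost, as they were without WT1 or WT2, without HOMO4, and for *Aldh1a3* without HOMO3, while *Aldh1a2* was called in all 8 fits that left out a library.

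Transcription factors outside the clusters that mark regions of the mesenchyme were read beside the Hox genes. Of 34 genes 25 were tested, 6 rose (*Alx1*, *Gata4*, *Wt1*, *Twist1* and *Msx1* among them) and 4 fell (*Msx2*, *Twist2* and *Tbx5* among them), with a median log2FC of 0.20. DESeq2 and limma-voom each called 9 higher and 7 lower. Of all genes, edgeR called 12.1%, DESeq2 16.5% and limma-voom 25.3% in either direction. An unadjusted edgeR p under 0.05 was found for 18 of the 25 tested, against 32.3% of all genes. Like the other lists, this one was chosen with earlier results of these data known. *Alx1*, a gene of craniofacial mesenchyme, had no counts in WT and 224, 399, 171 and 175 in HOMO1–HOMO4. *Gata4*, a gene of cardiac and septum transversum mesoderm, rose from 4.21 ± 2.13 to 109 ± 14.2 CPM (mean ± SD, n = 4 each), a log2FC of 4.69 ± 0.41 (SE, adjusted p = 8.33e-04 by edgeR). *Msx2* fell, with a log2FC of −4.49 ± 1.07 (SE, adjusted p = 0.0302 by edgeR). *Tbx5*, a lung mesenchyme gene, fell from 26.4 ± 9.99 to 12.6 ± 1.58 CPM (mean ± SD, n = 4 each), by 1.06 ± 0.28 (SE, adjusted p = 0.0391 by edgeR) on the log2 scale. *Alx1*, *Gata4*, *Msx1* and *Twist2* were called in all 8 fits that left out a library. *Alx1* passed the filter on low counts only through its HOMO counts, so its direction was tied to its being tested. The calls of *Twist1*, *Tbx5* and *Msx2* were kept in 1, 2 and 4 of these 8 fits and that of *Wt1* in 6, and *Tbx5* was not called without WT3, WT4 or any HOMO library.

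Markers of the labelled tissue and of other cells were read for the same libraries. Of 6 lung mesenchyme markers 5 were tested by edgeR, which called *Tbx5* alone, with a median log2FC of −1.65 and 4 at an unadjusted p under 0.05. DESeq2 called 4 lower (*Fgf10*, *Tbx5*, *Tcf21* and *Wnt2*), and limma-voom *Foxf1* higher and *Tbx4* and *Tcf21* lower. *Tbx4*, the other T-box gene of the lung mesenchyme, had 2.98, 2.53, 58.1 and 3.71 CPM in WT1–WT4 and 0, 0.0604, 0.658 and 1.25 CPM in HOMO1–HOMO4, so it was at or close to the floor in HOMO1 and HOMO2. *Foxf1* was at 36.8 ± 17.5 CPM in WT and 53.9 ± 0.907 CPM in HOMO (mean ± SD, n = 4 each). Of 8 fibroblast markers edgeR called *Vim* lower and 0 higher, with 4 at an unadjusted p under 0.05. DESeq2 called 2 higher and 2 lower (*Col1a1*, *Col1a2*, *Thy1* and *Vim*) and limma-voom 3 higher and 2 lower. The 6 epithelial markers summed to between 0.337 and 11.3 CPM, with *Cdh1* called higher, the 4 endothelial markers to between 1.33 and 4.21 CPM, and the 4 skeletal muscle markers to at most 0.178 CPM. Of the 5 haematopoietic markers edgeR called 0 and DESeq2 called 3 lower, 4 had an unadjusted edgeR p under 0.05, and their median log2 fold change was −2.65. *Rgs5*, of 5 smooth muscle and pericyte markers, was called lower by all 3 tools, and *Wt1*, of 5 mesothelial markers, higher. The edgeR calls of *Vim*, *Rgs5* and *Cdh1* were kept in 1, 1 and 2 of the 8 fits that left out a library. Of the mesothelial markers DESeq2 called 1 higher and 1 lower and limma-voom 4 higher and 1 lower. The mesothelial markers summed to 56.6, 51.7, 155 and 118 CPM in WT1–WT4 and 130, 130, 92.1 and 99.6 CPM in HOMO1–HOMO4. Whether the make-up of the cultures has a part in the Hox values was not tested.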

How the data were processed

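Untreated pFBs of 4 WT and 4 HOMO libraries were compared. Per the labels and the methods of the study, polyadenylated RNA was made into libraries and sequenced as paired reads. Reads had been cleaned by fastp, mapped by STAR on mm10 and assigned to genes by featureCounts, and the authors deposited raw counts. Versions, annotation and strand setting are not given in the sources used here. The deposited table is marked as one from which an outlier was taken out, and what was removed is not stated. All 8 count columns and 0 other columns were used.

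Library sizes were scaled with TMM. HOMO and WT were compared with the quasi-likelihood F test of edgeR 4.0.16 (R 4.3.3) without covariates, after filterByExpr by genotype and with Benjamini-Hochberg adjustment over the 14150 genes left. A call needed an adjusted p below 0.05 and a log2 fold change beyond 0.6 in either direction, as in the study. The standard error is the absolute log2 fold change over the square root of F, and 2 was the prior count for log2 CPM. Hox genes with over 3 counts in some library but outside the test were compared by exact permutation of CPM. Alternatives were DESeq2 1.42.0, RLE scaling, other filters, limma-voom (limma 3.58.1) with sample weights, the replicate number as a block, no fold threshold, each library left out, and near-identical libraries (biological coefficient of variation under 10%) summed. DESeq2 on summed libraries and WT1 and WT2 against HOMO were added after the data were seen. The ratios of neighbouring Hox genes were not among the planned tests either. Positions, exon lengths and shared exon bases came from GENCODE M21, and promoters and microRNAs from RefSeq tables of GRCm38.p6. The fits were tested on simulated counts. Figures were drawn with matplotlib 3.10.9.

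The members and all gene lists were chosen with earlier results of these data known. Every Hox entry is in the counts, and in each other list the called genes are named, with values for at most 5 of the largest changes or otherwise for the most abundant. A few genes that enter the counts are not reported here by name or value.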

Additional observations from a re-analysis of the deposited data

Results flagged for a closer look

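Over the 21 tested Hox genes and *Hoxb5os*, each genotype was checked for a library far from the other 3, which gives 44 groups of 4. For 4 separate values about 1 in 20 groups would have such a library by chance. Each genotype held near-identical libraries, so that rate may not apply here. A library stood apart in 2 of the 44 groups. Both cases were WT3. The level of *Hoxb3* in WT3 was 2.87 on the log2 CPM scale, and the other WT libraries had 4.41 to 4.56. For *Hoxa6*, WT3 had −0.26 and the other WT libraries 1.39 to 1.54. Neither gene was called between the genotypes. Without WT3 the log2 fold change of *Hoxb3* was −0.49 (edgeR adjusted p = 0.0231), short of the fold threshold of 0.6, and *Hoxa6* was not called.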

How the results depend on the processing

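*Hoxb5* to *Hoxb9* and *Hoxc4* were called with 8 libraries by edgeR, DESeq2 and limma-voom, with RLE scaling, other filters and the replicate block, and without each library in turn. Leaving out a library that has a near-identical partner keeps the partner, so those fits do not test dependence on a pair. The setting that ended these calls was edgeR on summed near-identical libraries, with 0 Hox genes, higher or lower, and 0 genes in all called. The number of all genes called was 2913 in DESeq2, 3573 in limma-voom, 719 in DESeq2 on summed libraries and 3117 for WT1 and WT2 against HOMO, where the near-identical WT libraries amount to 1 unit and the calls support nothing. The number of Hox genes called higher was 6 in limma-voom and 5 for WT1 and WT2 against HOMO. With the replicate block 6 Hox genes were called, 1 higher, and 947 genes in all. Same-numbered libraries did not deviate together (correlations of −0.12 to 0.01). Near-identical libraries within each genotype limit this check, so it cannot decide whether the numbers pair libraries. *Hoxd8* and *Hoxd9* were lost with the block (adjusted p = 0.0564 and 0.0712). Without each library in turn, 6 to 9 Hox genes (1 to 4 higher, 5 lower) and 507 to 2192 genes in all were called, fewest without HOMO1 (507) or HOMO2 (512 genes, 1 Hox gene higher).

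The log2 fold change turned in 3 uncalled genes described here. *Hoxa5* was 0.018 in limma-voom. *Hoxa7* was 0.61 in limma-voom, 0.088 with the block, −0.36 to 0.42 without each library (0.42 without WT4) and 0.80 against WT1 and WT2. *Hoxc6* was −0.16 and −0.17 on summed libraries in edgeR and DESeq2, −0.14, −0.26 and −0.30 without WT1, WT2 or WT4, −0.15 and −0.11 without HOMO3 or HOMO4, and up to 1.63 without WT3. The cause was not tested. Hox genes at or close to 3 counts per library cannot be told from absent ones at these depths.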

Other observations

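Within a library, the ratio of neighbouring genes also moved inside the lowered *Hoxb* stretch. The log2 ratio of *Hoxb9* to *Hoxb8* counts was −0.62, −0.50, −0.27 and −0.52 in WT1–WT4 and 0.10, −0.03, 0.10 and −0.09 in HOMO1–HOMO4, so the genotypes did not overlap (two-sided exact permutation p = 0.0286, adjusted over 17 pairs 0.081).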
